A study of Homo sapiens with 22 samples.

Results

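The regions described here are 581 crosslinking sites of the RNA-binding protein PSF that were listed in LNCaP prostate cancer cells after the androgen dihydrotestosterone (DHT) and not after vehicle. They were chosen by list membership: a peak of the Anti-PSF DHT list was kept where it overlapped a peak of the Anti-PSF-m DHT list by at least 1 bp and overlapped no peak of either vehicle list. The Anti-PSF DHT list holds 23580 peaks, so the DHT-only peaks are 2.46% of it, and the 4 lists together hold 69059 peaks. Presence in the lists and the scores there are therefore a description of the choice and carry no test. They touched 386 genes.

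The study followed RNA bound to PSF in prostate cancer lines with crosslinking immunoprecipitation (CLIP) and RNA immunoprecipitation (RIP). LNCaP cells gave 4 CLIP lists, 2 from cells given ethanol vehicle and 2 from cells given 10 nM DHT, both for 24 h. The labels call the samples of a treatment PSF-CLIP and PSF-CLIP2, the deposited lists call them Anti-PSF and Anti-PSF-m, and what the m stands for is not given in the sources used here. LNCaP, 22Rv1 and LTAD cells under the same 2 treatments each gave 1 input and 1 PSF-RIP library per treatment, 12 libraries of read counts in all. LNCaP is an androgen-responsive line from a lymph node metastasis, 22Rv1 is a line from a relapsed prostate xenograft, and LTAD is not spelled out in the labels. All cells, vehicle controls included, had spent 3 days in medium with 2.5% hormone-stripped serum. In the 4 LNCaP RIP and input libraries, 15 of 16 luminal prostate markers reached 10 CPM (TMM-scaled reads relative to the library's total in genes, read as a level per library and not per gene length) in every library, against 2 of 10 basal, 1 of 12 neuroendocrine and 1 of 15 stromal and leukocyte markers. The summed level of the luminal markers was 4554 and 4510 CPM in the vehicle libraries and 7430 and 6743 in the DHT libraries, and no other marker list summed above 164.4 CPM in any of the 4. KLK3, the androgen target that encodes prostate-specific antigen, rose by 2.97 on the log2 scale after DHT, and SFPQ itself had a log2 fold change of -0.05.

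PSF, the product of SFPQ, is a nuclear protein that works with its relative NONO in splicing, transcription and the assembly of paraspeckles, nuclear bodies built on the noncoding RNA NEAT1. In prostate cells the androgen receptor, once bound by DHT, moves to chromatin and raises the transcription of genes such as KLK3 and FKBP5. In CLIP, ultraviolet light joins a protein to the RNA it touches, so a peak marks a stretch of RNA, often in unspliced transcripts for a nuclear protein, rather than a stretch of DNA.

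The windows below are chosen examples of the sequence under these peaks. Each has 300 bases of the GRCh37 (hg19) genome centred on the peak midpoint, printed 5′ to 3′ on the strand of the gene, so that it reads as the RNA would with T for U. MBOAT2, FKBP5 and NCAPD3 are genes whose RNA rose after DHT, and capitals mark each run of overlapping GAGAG letters. Of the windows counted further below, 52.5% held GAGAG on the gene strand. The MBOAT2 window is chr2:9004813-9005112, the FKBP5 window chr6:35611417-35611716 and the NCAPD3 window chr11:134057145-134057444. These 3 lie in introns on the minus strand.

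MBOAT2: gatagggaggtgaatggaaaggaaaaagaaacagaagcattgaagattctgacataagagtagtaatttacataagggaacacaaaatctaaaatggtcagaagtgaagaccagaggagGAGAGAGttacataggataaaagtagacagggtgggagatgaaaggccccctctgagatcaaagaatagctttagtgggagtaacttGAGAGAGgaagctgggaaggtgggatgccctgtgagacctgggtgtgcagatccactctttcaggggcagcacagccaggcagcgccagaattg

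FKBP5: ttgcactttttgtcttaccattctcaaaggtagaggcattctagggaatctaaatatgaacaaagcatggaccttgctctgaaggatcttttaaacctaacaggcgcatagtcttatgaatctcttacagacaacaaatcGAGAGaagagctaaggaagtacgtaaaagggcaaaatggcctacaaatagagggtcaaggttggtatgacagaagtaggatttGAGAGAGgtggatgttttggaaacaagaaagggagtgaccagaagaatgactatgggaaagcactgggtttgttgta

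NCAPD3: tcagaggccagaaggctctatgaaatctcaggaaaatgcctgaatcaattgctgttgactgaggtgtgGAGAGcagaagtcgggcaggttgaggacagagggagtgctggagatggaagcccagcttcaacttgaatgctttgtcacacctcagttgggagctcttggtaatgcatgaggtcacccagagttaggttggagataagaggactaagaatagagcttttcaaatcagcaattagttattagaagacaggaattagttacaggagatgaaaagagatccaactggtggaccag

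The next window shows another case, with A or G at 32.3% of its bases and GAGAG on the opposite strand only. The SHC2 window, chr19:432510-432809 on the minus strand, belongs to the DHT-only peak with the highest score, and capitals mark the first copy of a 58-base unit that repeats through the window with 100% of bases matching.

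SHC2: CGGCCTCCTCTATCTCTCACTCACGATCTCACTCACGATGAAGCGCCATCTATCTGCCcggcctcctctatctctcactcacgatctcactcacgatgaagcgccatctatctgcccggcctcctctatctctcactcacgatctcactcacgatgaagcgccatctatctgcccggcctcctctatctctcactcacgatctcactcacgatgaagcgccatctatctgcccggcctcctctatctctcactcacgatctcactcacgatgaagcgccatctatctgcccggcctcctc

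The sequence on the gene strand was rich in purines, the bases A and G, and rose to a maximum at the peak. Of the 396 windows that lay in exactly 1 gene on 1 strand, 349 (88.1%) had more purines than pyrimidines, with a median of 60.0% A or G (quartiles 55.3% and 63.3%). The letters GAGAG stood on the gene strand in 208 windows (52.5%) and on the opposite strand in 45 (11.4%). A run of at least 12 purines stood in 185 windows (46.7%), and a run of at least 12 pyrimidines in 44 (11.1%). The asymmetry was local. In windows centred 1000 bases upstream of the same peaks, GAGAG stood on the gene strand in 22.0% and on the other strand in 23.0%, and 1000 bases downstream in 25.5% and 23.0%. More purines than pyrimidines were found in 42.9% and 45.2% of these flanking windows.

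Base by base, the purine share along the gene strand was 49.1% in the 100 bases centred 1950 bases upstream, 58.8% and 60.2% in the 100 bases on either side of the midpoint, and 49.0% in those centred 1950 bases downstream. Both purines took part. G went from 21.6% at the upstream end to 29.0% just downstream of the midpoint and A from 27.5% to 31.2%, while C went from 19.8% to 14.4% and T from 31.1% to 25.4%.

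**Figure D1:**
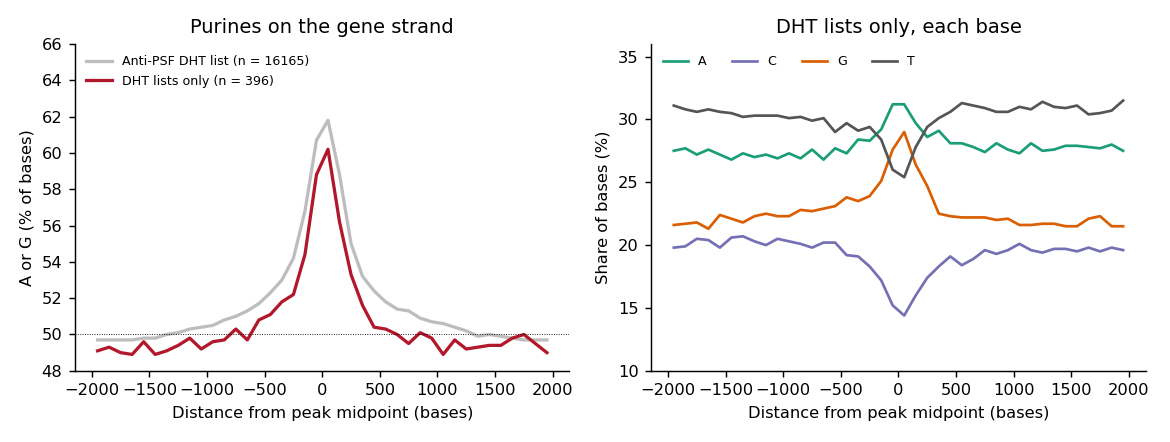
Base composition along the gene strand against the distance from the peak midpoint in bases, in bins of 100 bases; the left panel gives the percent of A or G for the 396 DHT-only peaks in 1 gene (red) and for 16165 peaks of the whole Anti-PSF DHT list (grey), and the right panel the percent of each base for the DHT-only peaks. A and G peak at the midpoint, where the DHT-only purine share reaches 60.2%, and the whole list shows the same shape.

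This composition was not particular to the DHT-only peaks. The whole Anti-PSF DHT list had a median of 61.7% purines, with GAGAG on the gene strand in 58.1% of 16164 windows and on the other strand in 10.5%. The 529 peaks of all 4 lists in 1 gene had a median of 63.7%, and the 65 peaks of the mirror set, found in both vehicle lists and in neither DHT list, one of 60.0%. Within the DHT-only peaks, those in genes that rose after DHT had a median of 60.7% (79 windows) and the others one of 59.7% (317 windows). Windows in listed introns had a median of 60.7% (352 windows) and those in exons one of 53.3% (30 windows). The letters AGAACA, a hexamer that makes up part of the DNA element bound by the androgen receptor, stood on either strand in 20.7% of DHT-only windows and 23.9% of all Anti-PSF DHT windows. The corresponding shares for GAGAG on either strand were 59.1% and 64.5%.

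By score the DHT-only peaks were near the middle of their list and below the peaks found in all 4 lists. The score is the authors' own value for each peak, and all 4 lists begin near 50. In the Anti-PSF DHT list the DHT-only peaks had a median score of 77.07 (range 50.07 to 1698), against 79.62 for the list and 257.2 for the 980 peaks found in all 4 lists. Scores under 100 were held by 71.4% of the DHT-only peaks, 65.1% of the list and 13.6% of the 4-list peaks. Their median width was 391 bp. At the edges of the rule, the smallest overlap with an Anti-PSF-m DHT peak was 6 bp and the nearest vehicle peak lay 1 bp away, while the excluded peak with the smallest vehicle overlap shared 18 bp with one. A vehicle peak lay within 500 bp of 86 of the 581 peaks, and the median distance to the nearest one was 8529 bp. The number of peaks rests on the rule, with 197 left where the overlap had to cover at least 50% of the peak and 34 where scores had to be at least 2 times the lowest.

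Most peaks that the 2 DHT lists shared were also in a vehicle list. Of 5156 Anti-PSF DHT peaks that overlapped an Anti-PSF-m DHT peak, 4540 also overlapped an Anti-PSF vehicle peak and 581 (11.3%) overlapped neither vehicle list. The mirror count was 163 of 1672 peaks shared by the vehicle lists (9.75%). The Anti-PSF-m vehicle list was the shortest, with 7691 peaks against 13546, 23580 and 24242 in the others, and how far list length sets these shares was not tested.

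The 10 highest-scoring DHT-only peaks, counting 1 per gene, lay in introns of 7 genes and at 3 places outside genes. SHC2, which encodes an adaptor of receptor signalling, held the first, chr19:431188-434132, with a score of 1698 in the Anti-PSF DHT list and 190.9 in the Anti-PSF-m DHT list. The second, chr5:71013317-71014162, scored 628.6 and lay outside genes. The other genes were PLCB4, a phospholipase C gene (523.3), PCGF3, a Polycomb gene (476.7), COQ8A, a gene of coenzyme Q synthesis (419.3), FAM53A (328.9), RASA3, a Ras GTPase-activating gene (295.1), and SDK1, a cell adhesion gene (289.3). By log2 fold change after DHT, SDK1 (1.63) and COQ8A (0.35) were higher in edgeR's test, and DESeq2 called neither. SDK1 held few reads, with 1 in vehicle input, 9 in DHT input, 13 in vehicle PSF-RIP and 29 in DHT PSF-RIP. SHC2 (-0.64), RASA3 (0.43), PLCB4 (0.08), PCGF3 (0.01) and FAM53A (-0.08) did not pass the test. SHC2 and FAM53A also held few reads, at most 44 in any LNCaP library. The PLCB4 window was also a tandem repeat, with a unit of 48 bases and 97.6% of bases matching. Such repeats made up 5 of 580 DHT-only windows (0.862%), 4 of 163 windows of the mirror set (2.45%) and 46 of 978 windows of the 4-list peaks (4.7%). They were not counted over the whole list.

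Introns held most of the DHT-only peaks. By peak midpoint and the transcripts of the deposited tables, 364 of 581 (62.7%, exact 95% interval 58.6 to 66.6%) lay in a listed intron, 32 (5.51%, 3.8 to 7.69%) in an exon, 14 (2.41%) in a gene with no exon or intron listed at that place, and 171 (29.4%, 25.8 to 33.3%) outside genes. The mirror set lay in introns in 40.5% of cases (32.9 to 48.4%) and outside genes in 55.8% (47.9 to 63.6%). The 4-list peaks lay in introns in 54.3% and outside genes in 41.4%, and the whole Anti-PSF DHT list in 61.3% and 27.5%. Peaks are not replicates and the intervals cover counting error only. The host introns had a median length of 19370 bp, and 98 of 364 peaks (26.9%) lay in introns of 50 kb or more, much as over the whole list (18650 bp and 27.3%). Within 1 kb of a transcript start lay 25 peaks (4.3%), against 3.84% of the list. The midpoint stood at a median of 38.9% of the way along the gene, against 44.04% for the whole list.

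The tables list an intron only where it had a read, so the places were also read from the GENCODE v44lift37 annotation, an alternative added after seeing the data. There 394 peaks (67.8%) were intronic, 37 (6.37%) in a 3′ UTR, 11 (1.89%) in a 5′ UTR, 26 (4.48%) in other exons and 113 (19.4%) outside genes. The lists give no strand, so a peak in a gene could also belong to an antisense transcript.

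Peaks with repeated sequence and peaks without it lay in different places. A window was called shared where it matched the window of another Anti-PSF DHT peak over at least 100 bases with at least 80% identity. Of the 581 peaks, 381 had no such match, and 79.5% of these lay in introns and 9.71% outside genes. A further 154 matched at least 10 other peaks, and 24.0% of these lay in introns and 74.0% outside genes. At least 1 match was found for 34.4% of the DHT-only peaks, 54.3% of the 4-list peaks and 68.7% of the mirror set. The share over the whole Anti-PSF DHT list was not measured.

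Reads from such copies are hard to place uniquely, and which copy was bound cannot be told from the lists. A group of 7 DHT-only peaks outside genes lay between positions 49280409 and 49333812 of chromosome 4. GOLGA2P10, a pseudogene with near-identical copies on chromosome 15, was credited with 3 peaks of 480 bp each that each shared sequence with 3 list peaks, and whether they are 1 site or 3 cannot be told from the lists.

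**Figure D2:**
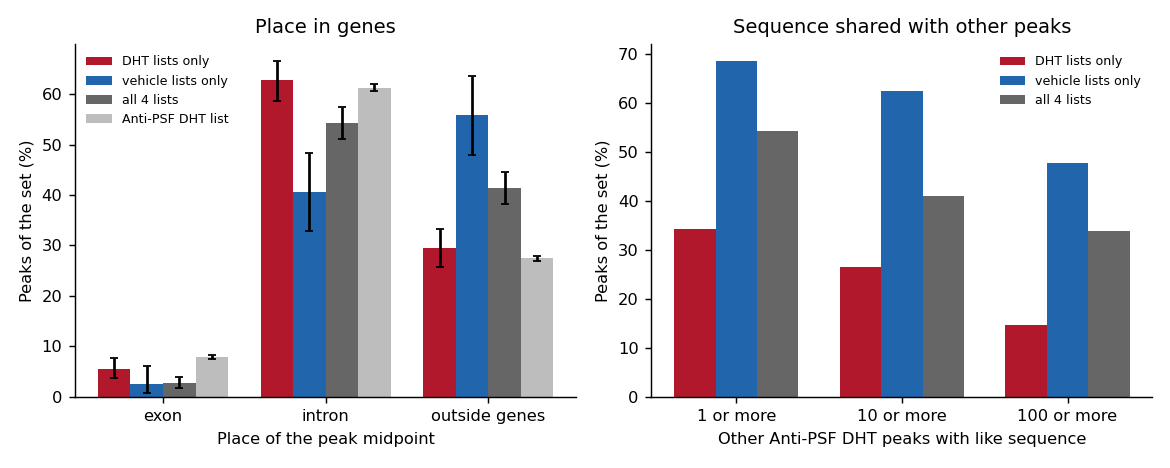
Left, percent of the peaks of each set with their midpoint in a listed exon, a listed intron or outside genes, with exact 95% binomial intervals; right, percent of peaks whose 300-base window matches at least 1, 10 or 100 other Anti-PSF DHT peaks. DHT-only peaks (red) lay in introns in 62.7% of cases and shared sequence in 34.4%, against 40.5% and 68.7% for the vehicle-only peaks (blue).

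Of the 386 genes touched, 348 held 1 DHT-only peak, 33 held 2 and 5 held 3 or more. The peaks were seldom alone in their gene, since 313 of the 386 genes held another Anti-PSF DHT peak, and 55 held a peak found in all 4 lists. NCAM2, a neural adhesion gene, held 3 DHT-only peaks among 55 peaks of the Anti-PSF DHT list, and KCNMA1, a calcium-gated potassium channel gene, 3 among 37. MBOAT2, which encodes a phospholipid acyltransferase, held 3 among 13, and PRKCH, a protein kinase C gene, 3 among 8. Of the other genes with most peaks, LPAR3, a lysophosphatidic acid receptor gene, held 2 and rose by 0.94 on the log2 scale. SDK1 held 2 and rose by 1.63 on few reads (edgeR adjusted p = 0.007537, not called by DESeq2). PCGF3 (0.01) and PELP1, a receptor coregulator gene (0.06), held 2 each and did not pass the test. KCNMA1 rose from 222.7 to 393.6 CPM in input and from 203.8 to 346.8 in PSF-RIP, a log2 fold change of 0.79. PRKCH went from 15.6 to 19.4 CPM and from 22.2 to 31.6, which did not pass the test (log2 fold change 0.47, edgeR adjusted p = 0.1146). The SFPQ, NONO, PSPC1, NEAT1, MALAT1 and KLK3 genes held none, where 5.95% of all genes with an Anti-PSF DHT peak held one. Whether these genes held other Anti-PSF DHT peaks is not given here.

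Genes that rose after DHT were common among those touched. Of the 386 genes, 357 passed the expression filter in the RIP and input libraries, and 68 of these (19.0%) were higher after DHT in LNCaP, where 6.31% of all 13776 genes tested were higher. A further 27 (7.56%) were lower, against 6.67% of all genes. The calls come from edgeR's quasi-likelihood test with Benjamini-Hochberg adjustment over all genes. In that test the DHT term of LNCaP rests on 2 vehicle and 2 DHT libraries, an input and a PSF-RIP of each. The median log2 fold change was 0.06 over the 357 genes and -0.02 over all genes. All 68 higher genes rose in both the input and the PSF-RIP library, which the call itself favours, since it rests on these same libraries. Over the 357 genes, called or not, 155 rose and 104 fell in both. Of the 68, 27 rose by more than 1 on the log2 scale, whereas the largest fall among the 27 lower genes was -0.90. DESeq2 called fewer, with 38 higher and 6 lower (2.79% and 1.27% of all genes), all of them also called by edgeR.

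The share of higher genes was smaller in the other peak sets. Genes touched by the mirror set were higher in 4 and lower in 6 of 61 tested (6.56% and 9.84%). Genes touched by 4-list peaks were higher in 41 and lower in 48 of 409 tested (10.0% and 11.7%), and those touched by any Anti-PSF DHT peak were higher in 446 and lower in 417 of 5777 (7.72% and 7.22%). The differences between these shares were not tested. Expression level was alike in the first 3 sets, with median log2 CPM of 6.11, 6.11 and 6.09, and lower over the list (5.58) and over all genes (4.98). Read the other way, among peaks that the 2 DHT lists shared, 79 of 413 in higher genes (19.1%) were absent from the vehicle lists, against 29 of 354 in lower genes (8.19%) and 272 of 2401 in genes called neither way (11.3%). Among peaks shared by the vehicle lists, 4 of 71 in higher genes (5.63%) and 6 of 103 in lower genes (5.83%) were absent from the DHT lists. The lists carry no RNA level, so more RNA of a gene and more binding per RNA molecule cannot be told apart, nor can more cells from more RNA per cell.

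**Figure D3:**
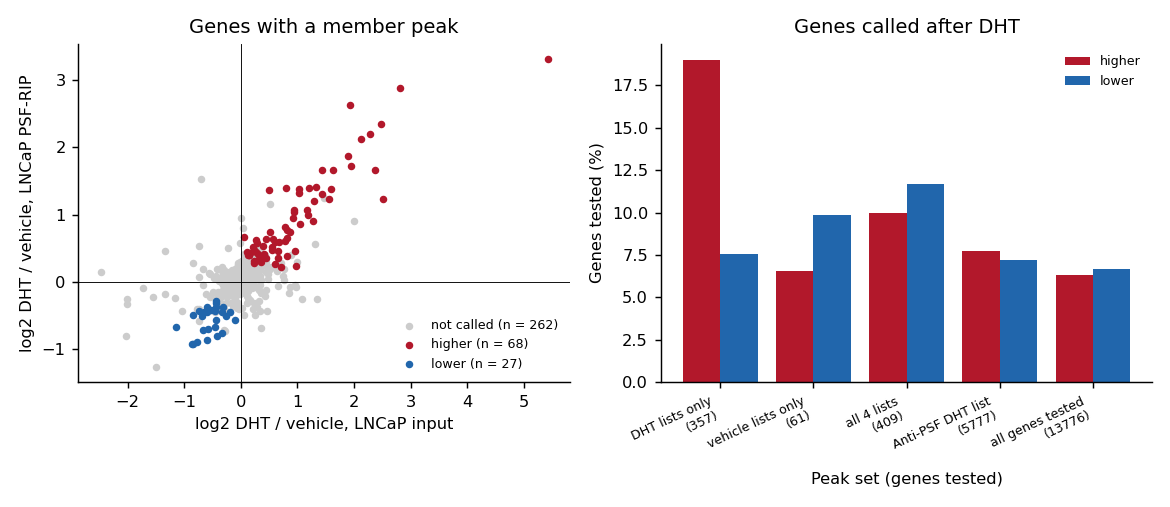
Left, log2 ratio of DHT to vehicle in the LNCaP input library (x) and PSF-RIP library (y) for the 357 tested genes with a DHT-only peak, coloured by the call of the edgeR test; right, percent of tested genes called higher (red) or lower (blue) for each peak set, with the number tested in brackets. The 68 higher genes, called from these same libraries, lie in the upper right, and 19.0% of the DHT-only genes were higher against 6.31% of all genes.

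FKBP5, a cochaperone of steroid receptors, rose with the smallest p. Its level was 64.9 CPM in vehicle input, 458.3 in DHT input, 55.9 in vehicle PSF-RIP and 415.5 in DHT PSF-RIP. Both DHT libraries stood above both vehicle libraries, with a log2 fold change of 2.87 (SE 0.12, edgeR adjusted p = 1.946e-114). Its DHT-only peak, chr6:35611246-35611887, lies in a 45888-bp intron with the nearest vehicle peak 19405 bp away, and the gene held 6 Anti-PSF DHT peaks in all.

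SLC45A3, the gene of the prostate membrane protein prostein, stood at 106.0 CPM in vehicle input, 518.9 in DHT input, 125.8 in vehicle PSF-RIP and 575.7 in DHT PSF-RIP. The log2 fold change was 2.23 (SE 0.10, edgeR adjusted p = 4.801e-97). Its DHT-only peak, chr1:205647722-205649632, was its only peak in the Anti-PSF DHT list. CAMKK2, a calcium-dependent kinase gene, likewise held a single list peak, chr12:121684473-121685299, and rose from 100.3 to 251.4 CPM in input and from 123.6 to 330.0 in PSF-RIP, a log2 fold change of 1.39.

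NCAPD3, which encodes a condensin subunit, rose from 34.5 to 195.6 CPM in input and from 43.1 to 222.2 in PSF-RIP. ELL2, an elongation factor gene, rose from 52.6 to 197.2 CPM and from 35.0 to 128.9. ZBTB16, a zinc finger repressor gene, rose from 14.0 to 55.0 CPM and from 13.9 to 88.3. In each of these the DHT libraries lay above the vehicle libraries, with log2 fold changes of 2.40, 1.89 and 2.52. The remaining named rises were those of PLPP1, a lipid phosphatase gene (1.57), ABCC4, an efflux pump gene with 2 DHT-only peaks (1.32), ZMIZ1, a coactivator gene of the androgen receptor (1.25), and IGF1R, the receptor of insulin-like growth factor 1, with 2 DHT-only peaks (1.44). The PLPP1 peak lies in an intron of PLPP1 and over an exon of the pseudogene RNF138P1.

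The lower genes changed less. ASPH, an aspartate hydroxylase gene, fell from 1449 to 800.2 CPM in input and from 1221 to 642.2 in PSF-RIP, with a log2 fold change of -0.89 (SE 0.09, edgeR adjusted p = 3.652e-22). MMP16, a membrane metalloproteinase gene, fell from 351.8 to 194.8 CPM and from 395.0 to 207.1, a log2 fold change of -0.90. NCAM2 fell from 481.6 to 304.7 CPM and from 251.1 to 152.7, a log2 fold change of -0.69. ZNF83, OFD1, KDM6A and LUZP2 were not called by DESeq2. The other named falls were those of PPP2R2A, a phosphatase 2A regulatory gene (-0.77), FAM111A (-0.67), PRKAA1, a catalytic subunit of the energy sensor AMPK (-0.66), ZNF83 (-0.64), OFD1, a centriole gene (-0.90), KDM6A, a histone demethylase gene (-0.40), and LUZP2 (-0.53). These 10 genes held 12 DHT-only peaks, 3 of them in NCAM2, and ASPH, KDM6A and LUZP2 also held 26, 28 and 21 Anti-PSF DHT peaks in all.

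**Figure D4:**
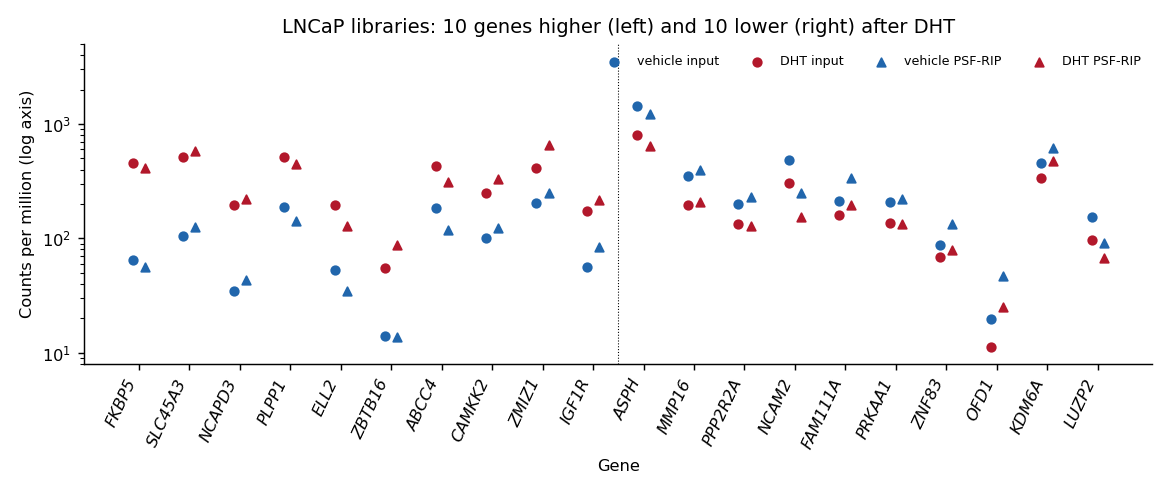
CPM on a log axis for the 10 higher (left of the dotted line) and 10 lower genes with the smallest p among those with a DHT-only peak; blue marks vehicle and red DHT, circles input and triangles PSF-RIP, with 1 library per point. In all 20 named genes both assays moved the same way, which the choice by smallest p over both assays favours. FKBP5 went from 64.9 to 458.3 in input and from 55.9 to 415.5 in PSF-RIP.

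Known androgen-induced genes were taken from a list of 57 that was chosen with earlier results of these data known. Of the 57, 37 held an Anti-PSF DHT peak and 15 a DHT-only peak. Over all genes with an Anti-PSF DHT peak, 5.95% held a DHT-only one. All 15 were higher after DHT in edgeR's test (median log2 fold change 1.57), of which DESeq2 did not call STEAP4 and LIFR. The list is not independent evidence of direction, since 43 of its 53 tested genes were higher and 28 of the 38 without a DHT-only peak were too (median 1.27). The 4 of the 15 with the highest-scoring peaks were HERC3, MBOAT2, FKBP5 and STEAP4. MBOAT2 rose from 44.4 to 138.2 CPM in input and from 25.8 to 82.8 in PSF-RIP, a log2 fold change of 1.67 (SE 0.14). HERC3, a ubiquitin ligase gene, rose from 14.0 to 38.8 CPM and from 15.1 to 38.4, a log2 fold change of 1.37. STEAP4, a metalloreductase gene, had 2 vehicle reads over both assays and 64 DHT reads, a ratio of 37.1 with an exact 95% counting interval of 9.85 to 313. Its peak, chr7:87907512-87908520, lies in an exon that GENCODE marks as 3′ UTR and is the only one in the gene. The remaining 11 were ABCC4, CAMKK2, ELL2, ERRFI1, INPP4B, LIFR, PLPP1, SLC45A3, SORD, UAP1 and ZBTB16.

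Over all 6483 genes with an Anti-PSF DHT peak, 386 (5.95%) held a DHT-only one. The small counts of the other lists are to be read against that share, over the genes of each list with an Anti-PSF DHT peak. Of 19 androgen-repressed genes, 8 held an Anti-PSF DHT peak and 0 a DHT-only peak, and 13 of 17 tested were lower. Among regulators of splicing, 14 of 20 genes of SR proteins and their kinases held an Anti-PSF DHT peak and 1 a DHT-only one. That gene, the kinase gene SRPK2, held 2 DHT-only peaks, 1 of which shares sequence with 422 list peaks (log2 fold change 0.44, edgeR adjusted p = 0.01581). Of 27 hnRNP genes, which encode RNA-packaging proteins, 23 held an Anti-PSF DHT peak and 3 a DHT-only one. HNRNPH3 was lower (-0.36, adjusted p = 0.02504), and HNRNPA2B1 (0.07) and RALY (0.11) did not pass the test. HNRNPH3 was also the only one of 24 paraspeckle genes with a DHT-only peak, and 14 of the 24 held an Anti-PSF DHT peak. Of 30 nuclear receptor coregulators, 23 held an Anti-PSF DHT peak and 2 a DHT-only one. Of the 2, the corepressor gene NCOR1 was higher (0.30, edgeR adjusted p = 0.01726), and its partner TBL1XR1 did not pass (0.11). DESeq2 did not call SRPK2, HNRNPH3 or NCOR1. Of 28 long genes best known from neurons, 19 held an Anti-PSF DHT peak and 3, DMD, NLGN1 and ERBB4, a DHT-only one. NLGN1 did not pass the test (-0.11), DMD was not tested, and ERBB4, whose peak shares sequence with 22 list peaks, had 0 reads in the 4 LNCaP libraries. No luminal, basal, neuroendocrine or stromal and leukocyte marker held a DHT-only peak, and 6, 2, 0 and 0 of them held an Anti-PSF DHT peak.

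Reads inside the introns gave a readout nearer to the peaks than exon counts. Such reads can come from unspliced RNA or from an exon of another transcript inside the intron, and these sources were not told apart. The midpoints of 373 peaks, the 364 above and 9 that also lie in an exon of some transcript, fell in 356 distinct introns, of which 238 had enough reads to test, with a median of 56 reads over the 4 LNCaP libraries. After DHT, 38 of the 238 (16.0%) were higher, where 1.86% of all 34510 introns tested were higher, and 5 (2.1%) were lower, against 0.808% of all introns. The median log2 fold change was 0.41 over these introns and 0.00 over all. Their median log2 CPM was 4.63, against 4.26 for introns of the whole Anti-PSF DHT list and 4.00 for all introns. The part of read depth in these shares was not tested. Without the 9 peaks, 37 of 230 introns were higher and 5 lower. This share was not particular to the DHT-only peaks. Introns of the mirror set were higher in 6 of 38 tested (15.8%, median 0.22) and those of the 4-list peaks in 47 of 351 (13.4%, median 0.23). The other Anti-PSF DHT introns (those with a listed peak, none of it DHT-only) were higher in 217 of 5260 (4.13%).

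Intron length moved with this response. Over introns with no Anti-PSF DHT peak the median log2 fold change went from -0.12 at up to 5 kb to 0.36 above 100 kb. The DHT-only introns followed the same order, from -0.20 (31 introns) through 0.04 at 5 to 20 kb (73), 0.70 at 20 to 50 kb (59) and 0.95 at 50 to 100 kb (33) to 0.96 above 100 kb (42). In the 4 classes above 5 kb the median of the DHT-only introns was the highest of the 3 groups, and in the class up to 5 kb it was the lowest. Above 100 kb, 19 of 42 DHT-only introns were higher (45.2%), against 79 of 378 other Anti-PSF DHT introns (20.9%) and 52 of 795 introns with no peak (6.54%). Assay moved with it too. Above 100 kb the median of the DHT-only introns was 0.28 in the input libraries and 1.36 in the PSF-RIP libraries, each a comparison of 1 DHT with 1 vehicle library. The part of intron length, and of the single DHT PSF-RIP library, in the result was not tested.

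**Figure D5:**
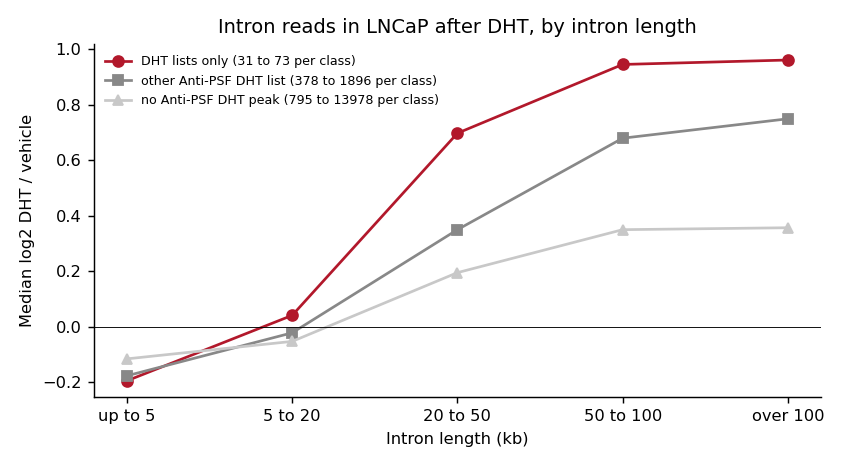
Median log2 ratio of DHT to vehicle in LNCaP for reads in introns, by intron length in kb, for introns with a DHT-only peak (red), other introns with an Anti-PSF DHT peak (dark grey) and introns with none (light grey), with the range of introns per class in brackets. All 3 lines climb with length, and the DHT-only introns reach 0.96 above 100 kb against 0.36 for introns with no peak.

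Of the 38 higher introns, 21 lay in genes whose exon counts were also higher and 3 in genes whose exon counts were lower. The PLPP1 intron held 21 reads in vehicle input, 74 in DHT input, 32 in vehicle PSF-RIP and 140 in DHT PSF-RIP, a log2 fold change of 2.33 (SE 0.24, edgeR adjusted p = 8.507e-12). The ZBTB16 intron held 2, 32, 9 and 72 reads in the same order, a log2 fold change of 3.59. In these the intron and the exons moved together.

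In 3 genes they moved apart. The first intron is in NCAM2 and holds 2 DHT-only peaks, where 591, 711, 851 and 1425 reads in vehicle input, DHT input, vehicle PSF-RIP and DHT PSF-RIP gave a rise of 0.83 (SE 0.13, edgeR adjusted p = 5.057e-06) and the exons fell by 0.69. The second is in MIR99AHG, a microRNA host gene, where the intron rose by 0.74 and the exons fell by 0.55. The third is in NAALADL2, where the intron rose by 0.61 and the exons fell by 0.46, a fall that DESeq2 did not call. These introns are 281961, 95804 and 237339 bp long. In all 3 the log2 ratio of DHT to vehicle was larger in PSF-RIP than in input. It was 1.17 against 0.46 in NCAM2, 1.06 against 0.38 in MIR99AHG and 0.85 against 0.30 in NAALADL2. The 5 lower introns lay in PRKACB (2 overlapping introns), CALM2, HNRNPH3 and ASPH.

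Recovery of exonic RNA with PSF was also compared in LNCaP. Of the 357 tested genes, 99 (27.7%) had a higher level in the PSF-RIP than in the input, where 21.2% of all genes did, and 80 (22.4%) a lower one, against 20.7%. The share of higher genes was 25.8% over the whole Anti-PSF DHT list. The median log2 ratio was 0.03 over both these genes and all genes, and -0.004 for these genes when the LNCaP libraries were fitted alone and -0.008 without the 22Rv1 libraries. Among the 68 genes that rose after DHT, 16 were higher in PSF-RIP and 18 lower. Genes of the 4-list peaks were higher in PSF-RIP in 143 of 409 tested (35.0%).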

How the data were processed

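The peaks and gene lists were chosen with earlier results of these data known. The 4 CLIP files hold, as deposited by the authors, a position and a score per peak on hg19, 1 list per library; the peak caller and its settings: not given in the sources used here. The RIP and input files hold, as deposited by the authors, whole-number counts of reads per transcript, exon set and intron, not normalized, per the file headers, with the total of mapped reads. The submitters' processing notes name TopHat2 2.1.0, Bowtie2 2.2.6 and Bowtie. LNCaP libraries held 1743886 to 5568110 mapped reads, the input libraries being the shallower. A second LNCaP set of 4 samples had contradictory labels, and its 12 value columns were not used; CLIP input was not analysed here.

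A peak was placed by its midpoint, and each gene was represented by its transcript with the highest mean count. The test was edgeR 4.0.16's quasi-likelihood F test under R 4.3.3, with TMM scaling, the default expression filter (13776 of 20239 symbols kept) and for each line an intercept, an assay term and a DHT term (9 coefficients, 3 residual degrees of freedom), with Benjamini-Hochberg adjustment at 0.05. The estimated prior degrees of freedom were infinite, so no gene has a spread of its own, and the spread used follows a trend over expression level. No label says that libraries came from separate cultures, and input and PSF-RIP of a treatment may share 1, so p-values measure only the spread between assays within lines, which may be technical. Introns were fitted likewise. Ratios of 1 assay use a prior count of 2. Named genes are the 10 top-scoring peaks, the 10 genes with most peaks, the 10 with the smallest p in each direction, list genes that hold a peak (all if 8 or fewer, otherwise 4) and 7 further genes. Alternatives were DESeq2, other scaling, filters, transcripts and sets of libraries, and other peak rules. Windows were matched with blastn 2.17.0. The promoter table was not used, since few peaks lay near starts.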

Additional observations from a re-analysis of the deposited data

Results flagged for a closer look

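The DHT response of some named genes with a DHT-only peak differed between LNCaP and another line by a test of the difference itself (edgeR's quasi-likelihood test of 2 DHT terms, adjusted over all genes). Values are the log2 response in LNCaP minus that in the other line, with 2 vehicle and 2 DHT libraries per line. Against 22Rv1 the response in LNCaP was more positive for NCAPD3 (2.00), PLPP1 (1.26), ELL2 (1.28), ZBTB16 (1.35), ABCC4 (1.41), CAMKK2 (1.01), ZMIZ1 (0.45), IGF1R (0.67), SDK1 (4.06) and HERC3 (0.91), and more negative for ASPH (-0.68), PPP2R2A (-0.47), PRKAA1 (-1.0), ZNF83 (-0.70) and MBOAT2 (-1.08). The SDK1 difference, from log2 responses of 1.63 in LNCaP and -2.43 in 22Rv1, rests on few reads. In LNCaP this gene held 1 read in vehicle input, 9 in DHT input, 13 in vehicle PSF-RIP and 29 in DHT PSF-RIP. MBOAT2 had a log2 response of 1.67 in LNCaP and 2.75 in 22Rv1, and ABCC4 had a log2 response of 1.32 in LNCaP and -0.09 in 22Rv1. Against LTAD the response in LNCaP was more positive for NCAM2 (0.73), with log2 responses of -0.69 and -1.43, and more negative for FKBP5 (-0.99), SLC45A3 (-0.66), ABCC4 (-0.72), IGF1R (-1.92), PPP2R2A (-0.79), FAM111A (-0.73), PRKAA1 (-0.68), ZNF83 (-0.68), MBOAT2 (-1.16), KCNMA1 (-0.53), HERC3 (-1.12), HNRNPH3 (-0.48) and RALY (-0.47). Over all 357 tested genes with a DHT-only peak, 46 differed from 22Rv1 and 55 from LTAD, against 887 (6.44%) and 1421 (10.3%) of the 13776 genes tested. The CLIP lists are from LNCaP alone, so whether the peaks differ between lines was not tested.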

How the results depend on the processing

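The number of DHT-only peaks depended on the rule: 197 with an overlap of at least 50% of the peak, 34 with scores at least 2 times the lowest, and 8900 to 12309 where 1 list per treatment was used, against 581. With the higher scores 35.3% were intronic and 64.7% outside genes. With 1 list per treatment 55.2% to 60.1% were intronic and 25.6% to 40.4% outside genes, and with GENCODE 67.8% and 19.4%. The other peak rules kept the count within 1.5 times and the shares within their intervals. DESeq2 called 38 genes higher and 6 lower, against 68 and 27 in edgeR, all of them among edgeR's calls, where it called 2.79% and 1.27% of all genes. A DHT term shared by the 3 lines called 70 higher and 16 lower, where it called 5.05% and 6.85% of all genes. Of the 70 and 16, 53 and 7 were among those 68 and 27. That setting lost the calls of PPP2R2A, FAM111A, PRKAA1, ZNF83, OFD1, KDM6A, SRPK2, HNRNPH3 and COQ8A and added PRKCH, HNRNPA2B1, RALY and NLGN1. The remaining settings called 65 to 72 higher and 22 to 32 lower, where they called 3.98% to 8.57% and 3.84% to 8.79% of all genes. Of the named genes, DESeq2 lost the calls of ZNF83, OFD1, KDM6A, LUZP2, SDK1, NAALADL2, STEAP4, SRPK2, HNRNPH3, NCOR1 and COQ8A; HNRNPH3 was also lost without the 22Rv1 libraries and without an expression filter. For PSF-RIP against input DESeq2 called 60 genes higher, and its share over all genes is not given here. The median log2 ratio went from 0.03 to -0.004 with the LNCaP libraries alone and to -0.008 without the 22Rv1 or 0.012 without the LTAD libraries. With introns of at least 10 reads in all, 28 of 336 were higher (8.33%) and 5 lower (1.49%), against 0.384% and 0.257% of all 106789. GENCODE was added after seeing the data. No named gene that passed the test changed direction under an alternative. Values of 1 LNCaP assay alone, with no test, stayed with the main fit for 29 named genes in input and 45 in PSF-RIP. They moved from it for 20 in input and 4 in PSF-RIP. The causes were not tested. No paired analysis was possible because replicate numbers are shared only by the CLIP lists, whose result is an overlap with no test; the fit of the RIP and input libraries already compares DHT with vehicle within each assay. Input depth limits changes in genes and introns with few reads.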
